A study of Mus musculus with 16 samples.

Results

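The 10 genes described here encode elastin, proteins of the microfibrils and fibulins that carry it, and the lysyl oxidases that cross-link it: Lox, Loxl1, Loxl2, Loxl3, Eln, Fbn1, Fbln5, Efemp1, Efemp2 and Mfap5. They were taken by gene symbol from a count table of 24421 entries, and all 10 were among the 13522 entries that passed the filter on low counts. The RNA was polyadenylated RNA of C57BL/6N mouse ventricles in 16 libraries, 4 per group. JP2CR mice were homozygous for a germline knock-in allele of Jph2 without codons 563 to 568, which makes junctophilin-2, a protein that tethers the T-tubules of heart muscle cells to the sarcoplasmic reticulum, resistant to the protease calpain, and WT mice were their wildtype littermates. The groups were JP2CR after trans-aortic constriction (TAC, a narrowing of the aorta that puts the left ventricle under pressure overload), JP2CR after sham surgery (Sham), WT after TAC and WT after Sham. All mice were labelled male, were operated on when 9 to 10 weeks old, and gave tissue 5 weeks afterwards. The allele is present in every cell type of the mouse, so ventricular RNA holds its effects in muscle and non-muscle cells together.

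Elastic fibres are assembled outside the cell. Tropoelastin, the product of Eln, is placed with the help of fibulins on a scaffold of fibrillin microfibrils, and lysyl oxidases then oxidise its lysines, as they do those of fibrillar collagens, so that neighbouring chains become cross-linked. In the heart these fibres run mainly in the walls of coronary vessels, in the valves, in the endocardium and epicardium and between muscle layers, and lysyl oxidases are best known there for stiffening the collagen matrix under load.

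Library totals ran between 9966782 and 16609732 counts. The labels give 4 mice per group without tying a library to a named animal, so a p-value here reflects variation from library to library. JP2CR Sham libraries 3 and 4 held 189 and 196 CPM (counts scaled to the library total, corrected by TMM factors) of Xist, the RNA of the inactive X chromosome, with 0 CPM of 4 Y-linked genes, and JP2CR TAC library 4 held 141 CPM of Xist beside 118 CPM of these genes, which goes against the label male. Library 3 lay between libraries 1 and 2 for 7 of the 10 genes in JP2CR TAC and 9 of 10 in WT TAC, against 1 of 10 in JP2CR Sham and 5 of 10 in WT Sham. Genes can vary together from library to library, so these counts are not of independent genes, and the share over all genes tested was not computed. Results that the libraries with Xist or the TAC libraries 3 decide are given with and without them. Markers of ventricular heart muscle summed to between 37600 and 40273 CPM in JP2CR TAC, 43532 and 48443 CPM in JP2CR Sham, 37328 and 42078 CPM in WT TAC and 44028 and 45332 CPM in WT Sham.

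TAC raised 9 of the 10 genes in both genotypes, and Efemp1 was the exception. In JP2CR hearts 9 genes were higher in TAC than in Sham and Efemp1 was not called, with a median log2 fold change of 1.10, where 20.7% of all genes tested were called higher, 20.7% lower and 41.5% in either direction, with a median of -0.00. In WT hearts 9 were higher and Efemp1 was lower, with a median log2 fold change of 1.15, where 21.1% of all genes tested were called higher, 20.8% lower and 41.9% in either direction, with a median of -0.00. A gene was called at a Benjamini-Hochberg adjusted p under 0.05 over all genes tested in edgeR's quasi-likelihood test. TAC and Sham libraries did not overlap for 8 of the 10 genes in JP2CR and for 10 of 10 in WT, against 34.1% and 42.0% of all genes tested. The size of the rise ran over a wide range, being largest for Lox and Mfap5 and smallest for Efemp2. In bulk RNA, more cells of a type and more RNA per cell cannot be told apart.

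**Figure D1:**
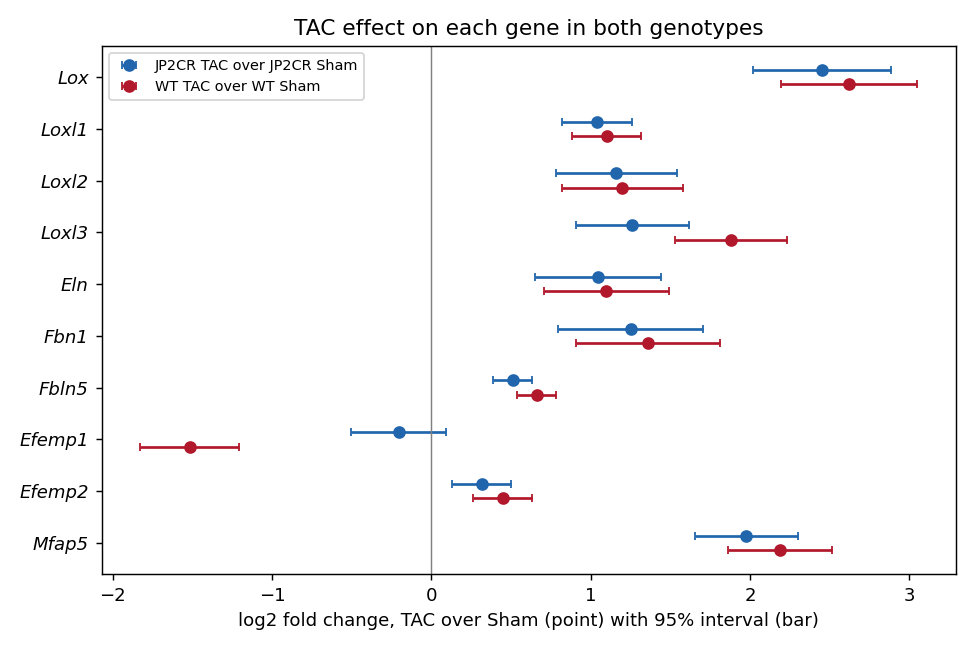
Log2 fold change of TAC over Sham on the horizontal axis for each of the 10 genes, with JP2CR in blue above WT in red; points are edgeR estimates from 4 libraries per group and bars are 95% intervals. Intervals of 9 genes lie above 0 in both genotypes, whereas that of Efemp1 runs between -0.50 and 0.09 in JP2CR and between -1.83 and -1.21 in WT.

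Lox encodes the lysyl oxidase that oxidises lysines of both collagen and elastin, and it is made as a proenzyme that BMP1-type proteases cleave. Lox had 37.1, 30.3, 33.7 and 21.5 CPM in JP2CR TAC libraries 1 to 4, against 7.34, 6.86, 4.93 and 2.82 CPM in JP2CR Sham. In WT TAC it had 27.7, 42.8, 35.4 and 33.2 CPM, against 6.96, 4.66, 6.43 and 4.85 CPM in WT Sham. Every TAC library lay above every Sham library in both genotypes, and JP2CR Sham library 4, with 27 counts of Lox, was the lowest of the 16. Lox rose 5.47-fold in JP2CR (log2 2.45 ± 0.22 SE, adjusted p = 2.88e-07) and 6.15-fold in WT (log2 2.62 ± 0.22, adjusted p = 7.04e-08), which was the largest rise among the 10 genes in each genotype. The gene lies on chromosome 18.

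Loxl1, the family member tied most closely to elastin renewal in mice, lies at chr9:58287738-58313186 on the minus strand (GRCm38, GENCODE M21, as all positions of genes below). Loxl1 had 96.6, 85.5, 91.2 and 70.6 CPM in JP2CR TAC, against 45.4, 43.7, 34.7 and 43.6 CPM in JP2CR Sham. The values in WT TAC were 83.7, 113, 100.5 and 81.7 CPM, against 42.9, 46.0, 44.7 and 43.3 CPM in WT Sham. The lowest TAC library had 70.6 CPM and the highest Sham library 46.0 CPM, so surgery alone separated the 16 libraries. The rise was 2.06-fold in JP2CR (log2 1.04 ± 0.11, adjusted p = 1.66e-06) and 2.14-fold in WT (log2 1.10 ± 0.11, adjusted p = 5.44e-07).

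Loxl2 (chr14:69609068-69695834, plus strand) and Loxl3 (chr6:83034173-83052562, plus strand) carry scavenger receptor domains in place of the propeptide of Lox. Loxl2, known for cross-linking collagen IV of basement membranes, had 37.8, 79.6, 57.4 and 57.8 CPM in JP2CR TAC, against 25.7, 26.0, 21.2 and 31.8 CPM in JP2CR Sham. It had 40.1, 74.2, 60.2 and 50.2 CPM in WT TAC, against 24.8, 24.7, 23.7 and 24.9 CPM in WT Sham. In both TAC groups library 1 was the lowest and library 2 the highest, while the 4 WT Sham libraries differed by little more than 1 CPM. Loxl2 rose 2.24-fold in JP2CR (log2 1.16 ± 0.19, adjusted p = 0.000139) and 2.29-fold in WT (log2 1.20 ± 0.19, adjusted p = 8.71e-05). With the mean levels of atrial and adipocyte markers as covariates the WT value was 0.58 on the log2 scale and was not called (adjusted p = 0.168).

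Loxl3 had 29.9, 23.4, 27.3 and 19.5 CPM in JP2CR TAC, against 8.20, 10.8, 12.2 and 10.5 CPM in JP2CR Sham. WT TAC libraries held 23.4, 43.6, 34.4 and 31.4 CPM of Loxl3, against 7.05, 9.25, 9.20 and 10.4 CPM in WT Sham. The groups of each genotype did not overlap, and 3 of 4 WT TAC libraries were above the highest JP2CR TAC library. Loxl3 rose 2.40-fold in JP2CR (log2 1.26 ± 0.18, adjusted p = 3.22e-05) and 3.68-fold in WT (log2 1.88 ± 0.18, adjusted p = 3.14e-07). The effect in JP2CR was smaller than in WT by 0.62 ± 0.26 on the log2 scale (95% interval -1.12 to -0.12), which did not pass the adjustment over all genes (adjusted p = 0.386). Exons of Loxl3 share 535 bases with those of Htra2 on the opposite strand, and the strand setting of the counting is not given in the sources used here.

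Scaled by exon length, the 5 lysyl oxidases Lox and Loxl1 to Loxl4 summed to 49.9 ± 5.39 CPM per kb in JP2CR TAC, against 21.4 ± 1.96 in JP2CR Sham (SD, n = 4 each). The sum was 54.7 ± 10.2 CPM per kb in WT TAC, against 21.6 ± 0.286 in WT Sham. Loxl1 held the largest share in every group, while the share of Lox was larger after TAC. Lox made up 12.7% ± 1.86 of the sum in JP2CR TAC, against 5.39% ± 1.91 in JP2CR Sham, and 13.3% ± 0.631 in WT TAC, against 5.55% ± 1.14 in WT Sham. The share of Loxl1 was 52.2% ± 3.36 in JP2CR TAC, against 59.3% ± 2.03 in JP2CR Sham, and 52.8% ± 2.79 in WT TAC, against 62.0% ± 1.19 in WT Sham. Neither share overlapped between TAC and Sham in either genotype. The log2 ratio of Lox to Loxl1 counts was higher in TAC than in Sham by 1.51 in JP2CR and by 1.52 in WT. Each of these gave p = 0.0286 in an exact 2-sided permutation test of 4 against 4 libraries, the smallest p this design allows, and an adjusted p of 0.0429 over 6 such tests. Both adjusted calls were lost without any one JP2CR TAC library (adjusted p = 0.0571, exact permutation). The WT libraries were all kept there, so the WT call was lost only through the adjustment over the 6 tests. Loxl3 made up 10.9% ± 1.34 in JP2CR TAC, against 10.7% ± 2.65 in JP2CR Sham, and 13.1% ± 1.24 in WT TAC, against 9.01% ± 1.38 in WT Sham. Loxl4, which is not among the 10 genes, held 2.48% ± 0.165 in JP2CR TAC, 1.99% ± 0.444 in JP2CR Sham, 1.99% ± 0.411 in WT TAC and 2.43% ± 0.733 in WT Sham.

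**Figure D2:**
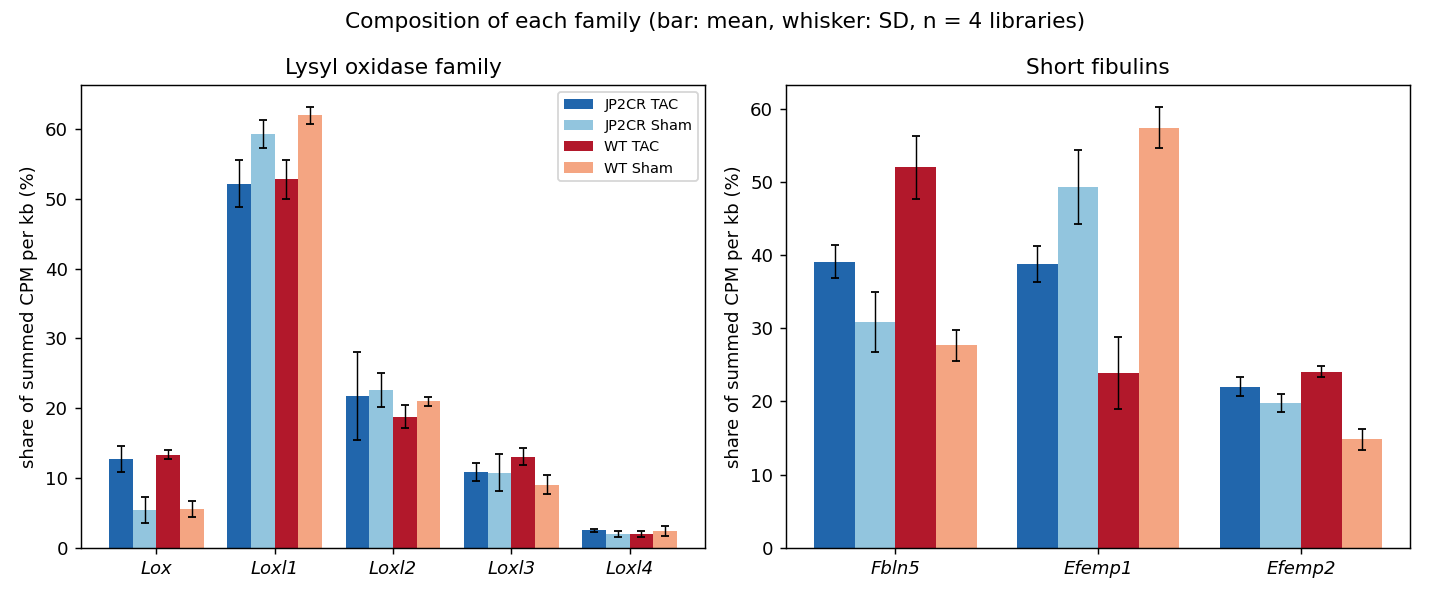
Share of each gene in the summed CPM per kb of its family, in percent, for the 5 lysyl oxidases (left) and the 3 short fibulins (right); bars are means of 4 libraries and whiskers SDs, in the order JP2CR TAC, JP2CR Sham, WT TAC, WT Sham. Lox gains share after TAC in both genotypes, and the share of Efemp1 is 38.8% in JP2CR TAC, 49.3% in JP2CR Sham, 23.9% in WT TAC and 57.5% in WT Sham.

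Eln encodes tropoelastin and lies at chr5:134702593-134747323 on the minus strand. Eln had 153, 200.2, 180.5 and 146 CPM in JP2CR TAC, against 116, 102, 62.3 and 48.3 CPM in JP2CR Sham. It had 208, 178, 190.3 and 135 CPM in WT TAC, against 82.0, 88.2, 77.8 and 84.3 CPM in WT Sham. No Sham library reached the lowest TAC library of its genotype. The coefficient of variation of Eln was 39.1% in JP2CR Sham, where libraries 3 and 4, those with Xist, were the low ones, against 5.27% in WT Sham. Eln rose 2.06-fold in JP2CR (log2 1.05 ± 0.20, adjusted p = 0.000487) and 2.14-fold in WT (log2 1.10 ± 0.20, adjusted p = 0.000275).

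Fbn1 encodes fibrillin-1, the main structural protein of microfibrils, and lies at chr2:125300594-125507993 on the minus strand. Fbn1 had 192, 339, 277 and 235 CPM in JP2CR TAC, against 133, 134, 64.8 and 108 CPM in JP2CR Sham. WT TAC libraries had 188, 432, 315 and 274 CPM, against 112, 123, 117 and 119 CPM in WT Sham. As for Loxl2, library 1 was the lowest and library 2 the highest in both TAC groups, and TAC and Sham did not overlap. Fbn1 rose 2.38-fold in JP2CR (log2 1.25 ± 0.23, adjusted p = 0.000358) and 2.57-fold in WT (log2 1.36 ± 0.23, adjusted p = 0.00014). With atrial and adipocyte marker means as covariates the WT value was 0.68 and was not called (adjusted p = 0.182). Exons of Fbn1 share 2442 bases with those of the predicted gene Gm9913 on the opposite strand, and those of Loxl2, Eln and Lox share 301, 267 and 30 bases with antisense transcripts.

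The balance of elastin to fibrillin-1 did not pass a test of its own. The log2 ratio of Eln to Fbn1 counts was -0.60 ± 0.19 in JP2CR TAC, against -0.45 ± 0.49 in JP2CR Sham, and -0.72 ± 0.62 in WT TAC, against -0.50 ± 0.06 in WT Sham (SD, n = 4 each). The TAC minus Sham difference was -0.15 in JP2CR (exact 2-sided permutation p = 0.600, adjusted p = 0.600) and -0.22 in WT (exact permutation p = 0.486, adjusted p = 0.583). One WT TAC library decided the second value: without WT TAC library 1, whose ratio of 0.15 stood above those of the other WT TAC libraries, the difference was -0.51 (adjusted p = 0.0343).

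Mfap5 encodes the microfibril-associated glycoprotein MAGP-2, which binds fibrillins, and lies at chr6:122505845-122529290 on the plus strand. Mfap5 had 88.4, 103, 95.4 and 77.8 CPM in JP2CR TAC, against 18.5, 17.9, 32.8 and 22.4 CPM in JP2CR Sham. The WT TAC libraries had 71.2, 116, 97.9 and 89.7 CPM, against 20.6, 19.995, 20.7 and 20.9 CPM in WT Sham. The lowest TAC library held more than the highest Sham library, JP2CR Sham library 3, by a wide gap. Mfap5 rose 3.94-fold in JP2CR (log2 1.98 ± 0.16, adjusted p = 1.29e-07) and 4.56-fold in WT (log2 2.19 ± 0.17, adjusted p = 2.59e-08), second only to Lox among the 10 genes.

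**Figure D3:**
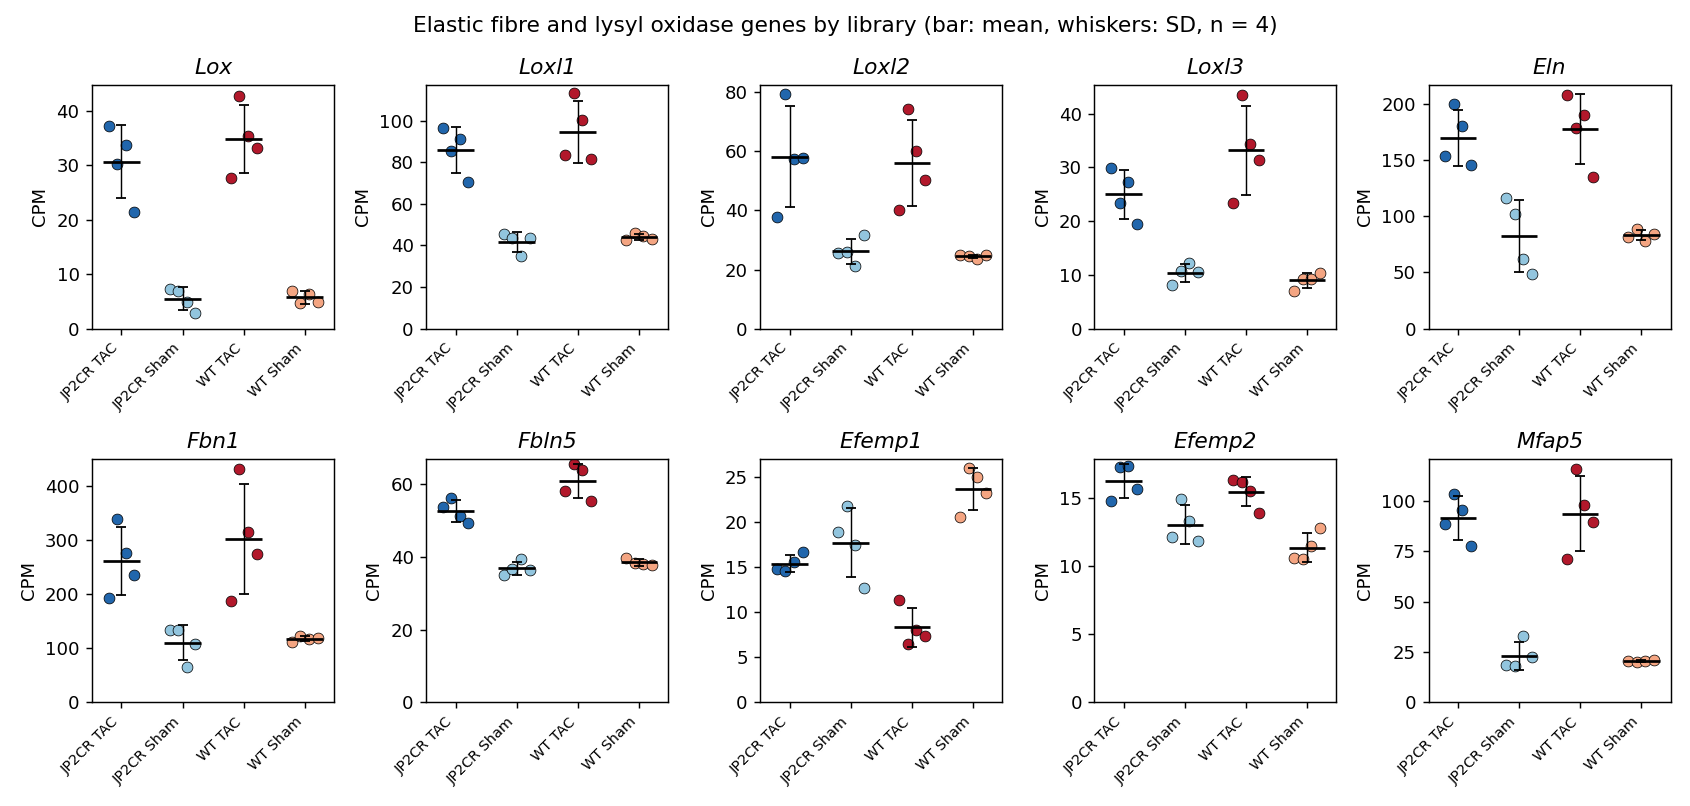
CPM of each of the 10 genes in every library (points), with the group mean (bar) and SD (whiskers, n = 4), in the order JP2CR TAC, JP2CR Sham, WT TAC, WT Sham; each panel starts at 0. TAC libraries lie above Sham libraries for 9 genes in WT and 8 in JP2CR, and for Efemp1 the WT TAC libraries lie between 6.44 and 11.4 CPM, below all others.

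The 3 short fibulins did not all move alike: Fbln5 and Efemp2 rose after TAC in both genotypes, and Efemp1 did not. Fibulin-5 (Fbln5) and fibulin-4 (Efemp2) bind tropoelastin and lysyl oxidases and are required for elastic fibres in mice, whereas fibulin-3 (Efemp1) is a related protein that binds TIMP3 and, in mice, is needed for elastic fibres of fascia rather than of the aorta. The 250 bases before a start site of each are shown because Efemp1 moved in the other direction from its 2 relatives after TAC in WT. These bases are from the RefSeq promoter table of GRCm38.p6, which holds entries for 4 of the 10 genes. They are printed on the strand of the gene with motif matches in capitals. The table has 3 start sites for Efemp2 and 2 for Fbln5, and the stretch printed is that of the first start site in the table whose downstream bases occur in a GENCODE M21 transcript of the gene.
Efemp1 (chr11:28852955-28853204, plus strand): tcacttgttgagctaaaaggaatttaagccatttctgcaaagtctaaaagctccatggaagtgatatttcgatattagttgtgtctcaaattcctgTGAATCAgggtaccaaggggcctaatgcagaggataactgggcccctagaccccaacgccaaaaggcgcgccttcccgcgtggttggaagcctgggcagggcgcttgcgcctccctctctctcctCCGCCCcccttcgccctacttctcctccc
Efemp2, first start site (chr19:5473696-5473945, plus strand): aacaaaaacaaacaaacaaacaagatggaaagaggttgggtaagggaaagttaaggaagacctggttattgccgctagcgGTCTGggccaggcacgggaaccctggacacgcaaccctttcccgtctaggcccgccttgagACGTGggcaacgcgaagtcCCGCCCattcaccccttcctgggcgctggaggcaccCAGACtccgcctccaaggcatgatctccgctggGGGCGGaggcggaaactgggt
Fbln5, second start site (chr12:101818485-101818734, minus strand): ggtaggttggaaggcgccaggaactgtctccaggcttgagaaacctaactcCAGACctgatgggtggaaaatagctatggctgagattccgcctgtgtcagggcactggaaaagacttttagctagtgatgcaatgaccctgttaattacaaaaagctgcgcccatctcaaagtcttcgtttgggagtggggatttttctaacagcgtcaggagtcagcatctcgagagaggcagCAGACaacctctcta
Motifs were searched on both strands by exact letters: the GC box GGGCGG, the SMAD box CAGAC, the AP-1 site TGANTCA, the core ACGTG of the hypoxia response element, the TEAD site GGAATG and the TATA box TATAAA. The Efemp1 stretch held 1 AP-1 site, 154 bases before the start, a motif found in 6.7% of the 32851 promoter entries, and 1 GC box (32.7% of entries). The Efemp2 stretch held 2 GC boxes, 2 SMAD boxes (42.2% of entries) and 1 ACGTG (16.6% of entries), and the Fbln5 stretch held 2 SMAD boxes. These matches changed with the start site: the stretches before the other two start sites of Efemp2, which overlap each other, held 5 GC boxes each, 0 SMAD boxes and 0 ACGTG, and that before the other Fbln5 start site held 2 GC boxes and 0 SMAD boxes. GGAATG and TATAAA, present in 12.6% and 12.4% of entries, were in none of the 3 stretches printed.

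Fbln5 (chr12:101746565-101819055, minus strand) had 53.7, 56.2, 51.2 and 49.3 CPM in JP2CR TAC, against 34.9, 36.7, 39.3 and 36.4 CPM in JP2CR Sham. It had 58.2, 65.5, 63.8 and 55.5 CPM in WT TAC, against 39.8, 38.3, 37.9 and 37.8 CPM in WT Sham. Its libraries varied little within a group, with coefficients of variation between 2.37% in WT Sham and 7.73% in WT TAC, and TAC and Sham were far apart. Fbln5 rose 1.43-fold in JP2CR (log2 0.51 ± 0.06, adjusted p = 5.70e-06) and 1.58-fold in WT (log2 0.66 ± 0.06, adjusted p = 2.27e-07). Between the TAC groups it was lower in JP2CR by 0.21 ± 0.06 on the log2 scale, but the groups overlapped and the difference did not pass the adjustment over all genes (adjusted p = 0.125).

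Efemp2 (chr19:5473954-5482517, plus strand) had 14.7, 17.3, 17.3 and 15.6 CPM in JP2CR TAC, against 12.1, 14.9, 13.3 and 11.8 CPM in JP2CR Sham. The WT TAC libraries had 16.3, 16.1, 15.5 and 13.9 CPM, against 10.6, 10.5, 11.5 and 12.7 CPM in WT Sham. JP2CR Sham library 2 lay above JP2CR TAC library 1, while the WT groups did not overlap. The rise of 1.24-fold in JP2CR (log2 0.32 ± 0.09, adjusted p = 0.0119) and 1.36-fold in WT (log2 0.45 ± 0.09, adjusted p = 0.000986) was the smallest among the 9 genes that rose. The JP2CR call was lost without the 3 libraries with Xist (0.29, adjusted p = 0.0807) and without library 3 of both TAC groups (0.28, adjusted p = 0.0501). Exons of Efemp2 share 173 bases with those of Mus81 on the opposite strand.

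Efemp1 (chr11:28853204-28926743, plus strand) fell after TAC in WT hearts. It had 11.4, 6.44, 8.04 and 7.31 CPM in WT TAC, against 20.6, 26.0, 24.9 and 23.1 CPM in WT Sham, which is 91 to 147 counts in WT TAC and 245 to 418 counts in WT Sham. The groups were far apart, and WT TAC library 1 was the highest of its group. The WT log2 fold change was -1.52 ± 0.16, a level 0.349 times that of Sham (adjusted p = 7.95e-07). In JP2CR TAC, Efemp1 had 14.8, 14.5, 15.5 and 16.6 CPM, against 18.8, 21.8, 17.5 and 12.7 CPM in JP2CR Sham. These groups overlapped through JP2CR Sham library 4, and the log2 fold change of -0.21 ± 0.15 was not called (95% interval -0.50 to 0.09, adjusted p = 0.296). Without the 3 libraries with Xist, which leaves JP2CR Sham libraries 1 and 2, the JP2CR value was -0.43 and was called (adjusted p = 0.0427). The authors' deposited table gives log2 fold changes of -0.19 for JP2CR and -1.44 for WT.

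The sum of the short fibulins was divided among them differently in the 4 groups. It was 19.4 ± 0.378 CPM per kb in JP2CR TAC, 17.4 ± 2.19 in JP2CR Sham, 16.9 ± 1.26 in WT TAC and 20.2 ± 1.08 in WT Sham (SD, n = 4 each). Efemp1 made up 38.8% ± 2.49 in JP2CR TAC, against 49.3% ± 5.09 in JP2CR Sham, and 23.9% ± 4.91 in WT TAC, against 57.5% ± 2.82 in WT Sham. Fbln5 made up 39.1% ± 2.22 in JP2CR TAC, against 30.9% ± 4.10 in JP2CR Sham, and 52.0% ± 4.29 in WT TAC, against 27.7% ± 2.15 in WT Sham. Fbln5 thus led the family in WT TAC and Efemp1 in both Sham groups. The log2 ratio of Efemp1 to Efemp2 counts, which needs no scaling factor, was -0.08 ± 0.15 in JP2CR TAC, against 0.42 ± 0.24 in JP2CR Sham, and -0.93 ± 0.33 in WT TAC, against 1.06 ± 0.20 in WT Sham. Both TAC minus Sham differences, -0.50 in JP2CR and -1.99 in WT, gave p = 0.0286 in an exact 2-sided permutation test (adjusted p = 0.0429 over the 6 tests). Without any one JP2CR TAC library the adjusted p was 0.0857 in JP2CR and 0.0571 in WT. All WT libraries were kept there, so the WT adjusted p rose only through the adjustment over the 6 tests.

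Efemp1 was the one gene of the 10 whose TAC effect was called different between genotypes. The JP2CR effect minus the WT effect was 1.31 ± 0.22 on the log2 scale (95% interval 0.88 to 1.74, adjusted p = 0.0256), in a comparison where 0.0887% of all genes tested were called higher and 0.0296% lower. The call was lost in 8 of the 16 fits that each left out 1 library, namely JP2CR TAC 3 and 4, JP2CR Sham 1, WT TAC 2, 3 and 4 and WT Sham 3 and 4 (adjusted p of 0.0558 to 0.0881), and over all 16 the value stayed between 1.20 and 1.505. It was also lost without library 3 of both TAC groups (1.29, adjusted p = 0.177) and with atrial and adipocyte marker means as covariates (1.02, adjusted p = 0.0759), and it was kept without the 3 libraries with Xist (1.09, adjusted p = 0.0101). For the other 9 genes the adjusted p of this difference lay between 0.386 and 0.978. Their 95% intervals reached from -0.79 to 0.45 for Lox, from -0.37 to 0.25 for Loxl1, from -0.60 to 0.50 for Eln and from -0.66 to 0.24 for Mfap5.

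After TAC, Efemp1 was 1.86-fold higher in JP2CR than in WT (log2 0.90 ± 0.16, adjusted p = 0.0218), with the lowest JP2CR TAC library at 14.5 CPM and the highest WT TAC library at 11.4 CPM. It was the one gene of the 10 called there, where 0.362% of all genes tested were called higher and 0.288% lower. It was also the one without overlap, against 8.09% of all genes tested, and 1 of 10 is near that share. The call was lost without any one of WT TAC libraries 2, 3 and 4 and JP2CR TAC libraries 3 and 4, with values between 0.78 and 0.89, and without both libraries 3 (0.88, adjusted p = 0.219). Within Sham hearts none of the 10 genes was called between genotypes by edgeR, where 0% of all genes tested were called higher and 0.0961% lower. All 10 overlapped between the Sham groups, where 4.76% of all genes tested did not. Efemp1 was the only one of the 10 there with an unadjusted p under 0.05, at -0.42 ± 0.15 on the log2 scale for JP2CR over WT (adjusted p = 0.427). DESeq2 and limma voom also called none of the 10 in Sham hearts.

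Markers of other tissues also differed between the groups in which Efemp1 differed. The share of all genes tested that was called after TAC was 41.5% in JP2CR (20.7% higher, 20.7% lower). In WT it was 41.9% (21.1% higher, 20.8% lower). In either direction, the JP2CR count of atrial calls is near that share, and the mesothelial counts are below it. Of 10 adipocyte markers 0 were called in JP2CR and 9 were lower in WT after TAC; their summed level ran from 472 to 617 CPM in JP2CR TAC, from 348 to 756 CPM in JP2CR Sham, from 348 to 420 CPM in WT TAC and from 397 to 684 CPM in WT Sham. Fabp4, which was not called (log2 fold changes of 0.14 in JP2CR and -0.19 in WT), made up most of that sum in every library. The other 9 adipocyte markers summed to 2.90 to 103 CPM in JP2CR TAC, 5.76 to 275 CPM in JP2CR Sham, 0.531 to 10.3 CPM in WT TAC and 25.4 to 239 CPM in WT Sham. The WT groups did not overlap in this sum, and Ucp1 and Retn had 0 counts in all 4 WT TAC libraries. Of 10 atrial markers, 4 were lower in JP2CR, and 9 were lower and 1 higher in WT; they summed to 4264 to 5316 CPM in JP2CR TAC, 364 to 6269 CPM in JP2CR Sham, 3993 to 7636 CPM in WT TAC and 3311 to 4855 CPM in WT Sham, of which the load-responsive Nppa was a part. Without Nppa the other 9 summed to 475 to 730.4 CPM in JP2CR TAC, 216 to 2379 CPM in JP2CR Sham, 132 to 371 CPM in WT TAC and 1538 to 2494 CPM in WT Sham. The mean log2 CPM of all 10 atrial markers, Nppa included, was 2.67 in JP2CR Sham library 4, the lowest of all libraries, and that library also had the least Efemp1 of its group. Of 7 mesothelial and epicardial markers 1 was lower in JP2CR and 2 in WT, with sums of 60.2 to 73.3 CPM in JP2CR TAC, 61.5 to 78.6 CPM in JP2CR Sham, 25.7 to 82.0 CPM in WT TAC and 72.1 to 80.5 CPM in WT Sham. With the atrial and adipocyte means as covariates Efemp1 was lower in WT TAC than in WT Sham, at -1.14 on the log2 scale (adjusted p = 0.000278), and it was higher in JP2CR than in WT after TAC, by 0.78 (adjusted p = 0.0388). The part of the mesothelial markers in these values was not tested. The atrial mean included Nppa, and both means were lower in every WT TAC library than in every WT Sham library. In WT this fit therefore cannot separate surgery from atrial and adipocyte content for any of the 10 genes.

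**Figure D4:**
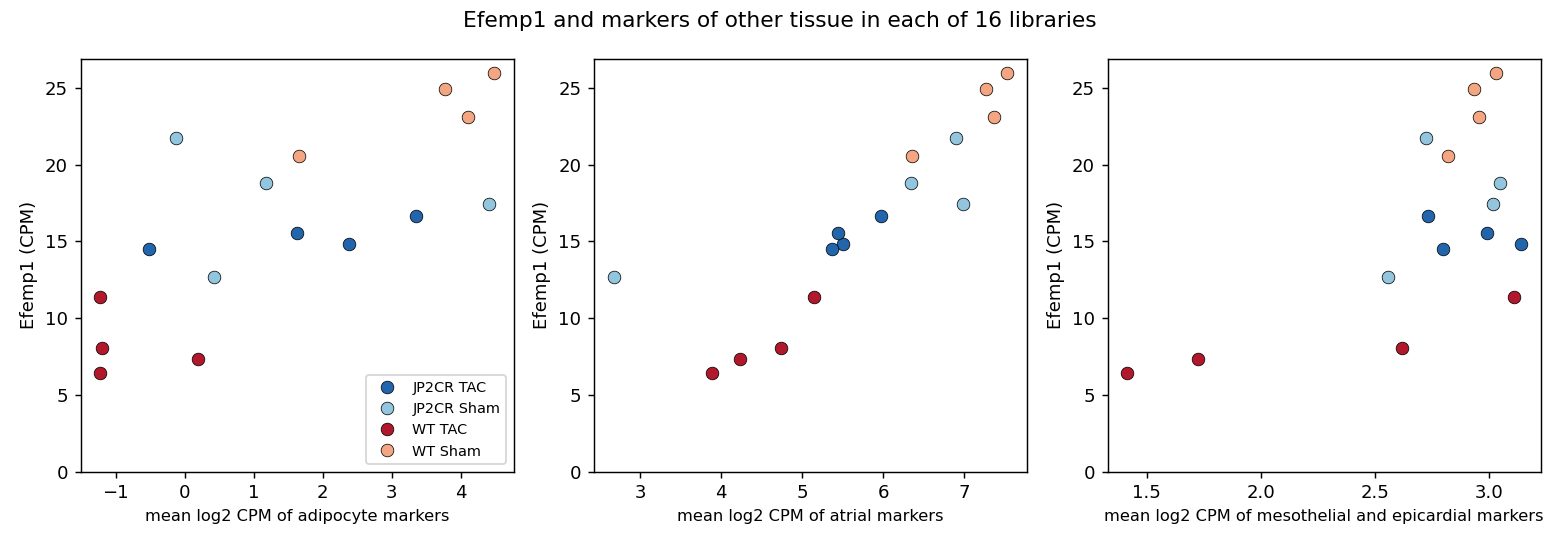
Efemp1 in CPM (vertical axis) against the mean log2 CPM of adipocyte, atrial, and mesothelial and epicardial markers (horizontal axes), 1 point per library and 1 colour per group. The 4 WT TAC libraries are the lowest for Efemp1, 3 of them are also the lowest on the adipocyte axis, and JP2CR Sham library 4 stands alone at an atrial mean of 2.67.

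The 9 genes that rose are made in the heart mainly by fibroblasts and vascular smooth muscle, and markers of these cells moved in both directions. For the counts that follow, the share of all genes tested that was called was 41.5% in JP2CR (20.7% higher, 20.7% lower). In WT it was 41.9% (21.1% higher, 20.8% lower). Of 12 fibroblast markers 5 were higher and 4 lower after TAC in JP2CR, and 5 were higher and 3 lower in WT. Their summed level was 2735 to 2995 CPM in JP2CR TAC, 2838 to 3717 CPM in JP2CR Sham, 2151 to 3547 CPM in WT TAC and 2934 to 3373 CPM in WT Sham. The lineage marker Pdgfra had log2 fold changes of -0.00 in JP2CR and 0.08 in WT, while Cthrc1, a marker of activated fibroblasts, had 3.27 in JP2CR and 2.96 in WT. Those called lower were Dpt, Gsn and Wif1, at -0.55, -0.56 and -1.48 in JP2CR and -0.75, -0.75 and -1.97 in WT. Tcf21 was called lower in JP2CR only, at -0.32. Of 7 smooth muscle markers 0 were higher and 4 lower in JP2CR, and 1 was higher and 6 lower in WT, with sums of 517 to 566 CPM in JP2CR TAC, 700.4 to 902 CPM in JP2CR Sham, 489 to 531 CPM in WT TAC and 692 to 923 CPM in WT Sham. Of 6 valve markers 4 were higher in each genotype, with 2 lower in WT, and their sums had medians of 122 CPM in JP2CR TAC, 72.5 CPM in JP2CR Sham, 161 CPM in WT TAC and 87.4 CPM in WT Sham. Macrophage markers were mostly higher after TAC: 7 of 8 in each genotype, with 0 lower and median log2 fold changes of 0.50 in JP2CR and 0.49 in WT. The one not called was Adgre1 in JP2CR and Csf1r in WT. Their sums did not overlap between TAC and Sham, at 310 to 368 CPM in JP2CR TAC, against 224 to 264 CPM in JP2CR Sham, and 299 to 317 CPM in WT TAC, against 216 to 242 CPM in WT Sham. Of 6 pericyte markers 1 was higher and 2 lower in each genotype, and of 8 endothelial markers 2 were lower in JP2CR and 0 were called in WT. The pericyte counts are near the share over all genes tested, and the endothelial counts are below it. The part of fibroblast, smooth muscle, valve and macrophage content in the rise of the 9 genes was not tested.

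Per kb of exon, the order of the genes was not the same in TAC and Sham hearts. In JP2CR TAC, Loxl1 at 26.1, Mfap5 at 25.4, Fbn1 at 21.5 and Eln at 20.999 CPM per kb stood above Loxl2 at 10.8 and Fbln5 at 7.61, and the other 4 lay between 4.29 and 7.55. In JP2CR Sham, Loxl1 at 12.7, Eln at 10.1, Fbn1 at 9.06 and Efemp1 at 8.68 CPM per kb led, and Lox was last at 1.15. WT TAC had Loxl1 at 28.8, Mfap5 at 26.1, Fbn1 at 24.9 and Eln at 22.0 CPM per kb at the top, and Efemp2 at 4.08 and Efemp1 at 4.07 at the bottom. WT Sham had Loxl1 at 13.4, Efemp1 at 11.6, Eln at 10.3 and Fbn1 at 9.70 CPM per kb, and Lox was again last at 1.20. Mean ± SD ranges of the first 4 genes in each TAC group overlapped, so their order among themselves is not settled, and below them, from Loxl2 down, each neighbouring pair overlapped as well, except Loxl3 and Efemp2 in WT TAC. In JP2CR Sham each neighbouring pair overlapped down to Loxl2. In WT Sham the ranges of Efemp1 and Eln, of Eln and Fbn1, and of Mfap5 and Fbln5 overlapped, while Loxl1 and Lox stood clear of their neighbours. By exon length Efemp1 was thus second of 10 in WT Sham and last in WT TAC, although by this length its WT TAC level did not differ from that of Efemp2 beyond their spread. By the longest transcript Efemp1 had rank 3 in WT Sham and was again last in WT TAC, at 4.07 CPM per kb against 5.87 for Efemp2. The length chosen also changed the levels of Fbln5, Efemp2 and Mfap5 by more than their SD in each group. It matters most for Eln, whose exons together span 8.098 kb while its longest transcript has 3.853 kb. By the longest transcript Eln had 44.1 CPM per kb in JP2CR TAC, 21.3 in JP2CR Sham, 46.2 in WT TAC and 21.6 in WT Sham, and was first in each group.

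Other proteins of the elastic fibre moved in both directions. Of all genes tested, 41.5% were called in either direction in JP2CR (20.7% higher) and 41.9% in WT (21.1% higher). Of 14 tested microfibril and elastic fibre genes outside the 10, 6 were higher and 3 lower after TAC in JP2CR (median log2 fold change 0.39), and 7 were higher and 4 lower in WT (median 0.36). Ltbp2, a latent TGF-beta binding protein that sits on microfibrils and binds fibulin-5, rose by 3.72 ± 0.23 on the log2 scale in JP2CR and 3.71 ± 0.22 in WT (adjusted p = 6.63e-09 in JP2CR and 2.46e-09 in WT). Emilin1, a glycoprotein at the interface of elastin and microfibrils, rose by 0.63 ± 0.07 in JP2CR and 0.84 ± 0.07 in WT. Ltbp1 fell, with -0.57 ± 0.06 in JP2CR and -0.71 ± 0.06 in WT, and so did Emilin2, with -1.25 ± 0.15 in JP2CR and -1.46 ± 0.16 in WT. Of 10 ADAMTS and ADAMTS-like genes, several of which regulate microfibrils, 3 were higher and 1 lower in JP2CR, and 4 were higher and 2 lower in WT (medians 0.00 in JP2CR and 0.14 in WT), of which the JP2CR count is near the share over all genes tested. Adamtsl2 rose by 1.81 ± 0.24 in JP2CR and 2.37 ± 0.25 in WT, and Adamtsl5 by 0.39 ± 0.08 in JP2CR and 0.62 ± 0.08 in WT. Adamts19 had -0.49 ± 0.32 in JP2CR, where it was not called, and -1.75 ± 0.35 in WT, and Thsd4, which binds fibrillin-1, fell with -0.33 ± 0.10 in JP2CR and -0.46 ± 0.10 in WT.

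Partners and substrates of the lysyl oxidases mostly rose, where 20.7% of all genes tested were called higher in JP2CR and 21.1% in WT. Calls in either direction made up 41.5% of all genes tested in JP2CR and 41.9% in WT. Of 11 genes for processing, copper supply and binding partners, 7 were higher and 1 lower after TAC in JP2CR, and 7 were higher and 0 lower in WT (median log2 fold changes 0.67 in JP2CR and 0.46 in WT). Periostin (Postn), which binds BMP1 and aids the activation of Lox, rose by 2.81 ± 0.22 in JP2CR and 3.14 ± 0.22 in WT, and fibronectin (Fn1) by 1.05 ± 0.17 in JP2CR and 1.31 ± 0.17 in WT. Pcolce, an enhancer of BMP1, rose by 0.67 ± 0.09 in JP2CR and 0.76 ± 0.09 in WT, and Atp7a, the copper pump that loads Lox, by 0.81 ± 0.10 in JP2CR and 0.58 ± 0.10 in WT. Of 7 fibrillar collagen genes 6 were higher in each genotype (medians 1.002 in JP2CR and 1.09 in WT). Among them Col1a1 rose by 1.20 ± 0.11 in JP2CR and 1.19 ± 0.11 in WT, and Col3a1 by 0.98 ± 0.11 in JP2CR and 0.76 ± 0.11 in WT. Col5a2 rose by 1.30 ± 0.14 in JP2CR and 1.54 ± 0.14 in WT, and Col1a2 by 1.002 ± 0.12 in JP2CR and 1.09 ± 0.12 in WT. A list of 6 genes was drawn up for lysine hydroxylation, the step that sets the type of cross-link, and it included the prolyl hydroxylase P3h1. Of these 6, 2 were higher and 1 lower in each genotype (medians 0.15 in JP2CR and 0.08 in WT), which is near the share over all genes tested. Plod2 rose by 0.44 ± 0.07 in JP2CR and 0.28 ± 0.07 in WT and Plod3 by 0.27 ± 0.11 in JP2CR and 0.36 ± 0.11 in WT, Fkbp10 fell with -0.29 ± 0.09 in both, and Plod1 at -0.08 ± 0.07 in JP2CR and 0.07 ± 0.07 in WT was not called.

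Enzymes that break elastin down, their inhibitors, and receptors of elastic fibres held called genes in both genotypes, where 41.5% of all genes tested were called in JP2CR and 41.9% in WT. Of 13 tested proteases and inhibitors 8 were higher and 0 lower after TAC in JP2CR, and 6 were higher and 1 lower in WT (median log2 fold changes 0.45 in JP2CR and 0.27 in WT), and the WT count of calls is not far above the share over all genes tested. Timp1, an inhibitor of metalloproteinases, rose by 2.74 ± 0.14 in JP2CR and 2.35 ± 0.14 in WT. The elastolytic cathepsins Ctss and Ctsk rose by 0.72 ± 0.13 and 1.04 ± 0.16 in JP2CR and by 0.70 ± 0.13 and 0.79 ± 0.16 in WT, and Mmp2 by 0.35 ± 0.12 in JP2CR and 0.63 ± 0.12 in WT. Of 9 receptor genes 5 were higher and 2 lower in each genotype (medians 0.31 in JP2CR and 0.28 in WT). The integrin genes Itgb5, Itga5 and Itgav rose by 0.49 ± 0.04, 0.55 ± 0.07 and 0.55 ± 0.07 in JP2CR and by 0.65 ± 0.04, 0.60 ± 0.07 and 0.45 ± 0.07 in WT. Itga8, whose product binds fibronectin and nephronectin, fell with -1.23 ± 0.33 in JP2CR and -2.07 ± 0.33 in WT. Of 13 tested genes of TGF-beta signalling and other load-responsive regulators 7 were higher and 1 lower in JP2CR, and 8 were higher and 1 lower in WT (medians 0.31 in JP2CR and 0.33 in WT). Tgfb2 rose by 1.57 ± 0.11 in JP2CR and 1.67 ± 0.11 in WT, Tgfbr1 by 0.64 ± 0.07 in JP2CR and 0.44 ± 0.07 in WT, and Hif1a by 0.50 ± 0.13 in JP2CR and 0.80 ± 0.13 in WT. Srf had -0.03 ± 0.05 in JP2CR, where it was not called, and rose by 0.33 ± 0.05 in WT. Of the 83 tested genes on these lists 0 were called for the difference of TAC effects between genotypes in edgeR's test, 8 had an unadjusted p under 0.05 there, and DESeq2 called 1. Over all 13522 genes tested, 1395 had an unadjusted p under 0.05 there, so 8 of 83 is near the share over all genes. Without the 3 libraries with Xist edgeR called 6 of the 83. In TAC hearts JP2CR was higher than WT for Timp4 (1.29 ± 0.26, edgeR adjusted p = 0.0313) and lower for Itgb5 (-0.21 ± 0.04, adjusted p = 0.042). That comparison called 0.362% of all genes tested higher and 0.288% lower. Without library 3 of both TAC groups it held 2 calls higher and 2 lower over all genes. Timp4 and Itgb5 are not given separately for that fit.

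Across the 16 libraries, the gene most like each of the 10 was named by Pearson's r of log2 CPM among 11586 genes whose mean log2 CPM reached 1. The 10 genes themselves and symbols of predicted genes (Gm followed by digits, or ending in Rik) were left out of these candidates. The r values are descriptions, since the libraries share 4 groups and the difference between TAC and Sham dominates them. Mfap5 was most like Emp1 (r = 0.993), Lox like Xpr1 (0.987), Fbln5 like Frem1 (0.987), Loxl1 like Rab31 (0.979) and Loxl3 like Plekho1 (0.978). Fbn1 was most like Col4a1 (0.974), Eln like Chpf2 (0.966), Loxl2 like Fmnl3 (0.963) and Efemp2 like Usp37 (0.923). Efemp1 was most like Dpp4 (0.944), followed by Gdf10 (0.940).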

How the data were processed

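Per the labels' protocols, Trizol RNA of ventricles was enriched for polyA RNA and sequenced from stranded libraries. The count values deposited by the authors are whole numbers for each gene symbol and are not normalized. Tools listed in the submitters' processing notes are FastQC 1.0.0, STAR 2.5.0b, Picard 1.128, Cufflinks 2.2.1, bedtools 2.17.0 and DESeq2 1.6.3, with the build mm10. Which tool counted, with which annotation and strand rule, is not given in the sources used here, so overlapping genes may share reads. Columns of log2 fold changes and p-values (adjusted) were deposited by the authors in the same table, with no method named, and some cells of these columns hold other values, which are text, as deposited by the authors.

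Groups and replicate numbers came from sample titles. In edgeR 4.0.16 (R 4.3.3) entries were kept by filterByExpr, scaled by TMM factors and fitted with 1 mean per group over 16 libraries, and 5 contrasts were tested by quasi-likelihood F tests with Benjamini-Hochberg adjustment. The standard error is the log2 fold change divided by the square root of F. Lengths for CPM per kb are the union of exons in GENCODE M21 (GRCm38, the same assembly as mm10). Ratios of 2 genes were compared by exact permutation of 4 against 4 libraries. The fits were tested on simulated counts.

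The 10 genes, the other lists and the tests were chosen with earlier results of these data known. All 10 genes are named, and of each other list up to 4 with the smallest p in WT TAC over WT Sham. Alternatives were DESeq2 1.42.0, limma 3.58.1 voom, other scaling factors and filters, stricter thresholds, fits of the compared groups alone, the replicate number as a block, marker means as covariates, and leaving out libraries. Every pair of libraries within a group differed by more than sampling noise. Counting precision is set by 27 to 6513 counts per library for these genes. Figures were drawn with matplotlib 3.10.9.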

Additional observations from a re-analysis of the deposited data

Results flagged for a closer look

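Loxl1 in JP2CR Sham library 3, at 34.7 CPM, stood apart from the other JP2CR Sham libraries, which lay between 43.6 and 45.4 CPM. Its gap to the nearest of them was 0.831 of the range of the group, above the critical value of Dixon's test for 4 libraries. It was the 1 such library in 40 combinations of a gene and a group, and chance flags about 1 in 20 such groups. The library is one of the 3 with Xist.

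The TAC effect on Efemp1 differed between JP2CR and WT by 1.31 on the log2 scale in a test of the difference itself (edgeR adjusted p = 0.0256).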

How the results depend on the processing

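Of 1440 values of the 10 genes under alternatives, 1412 kept their side of the threshold, 27 lost a call, 1 gained one and 0 changed sign as a called value. Direction was checked only for values called in the main fit, and some values that were not called changed sign. The 9 genes higher after TAC in each genotype were 9 in every fit that left out 1 library and 7 to 9 under the other alternatives. Efemp2, and Fbln5 in JP2CR, did not reach a 1.5-fold change. In the other lists the counts of genes higher after TAC moved by at most 2 without the libraries with Xist or without both libraries 3.

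Without the 3 libraries with Xist, 1 gene (Efemp1) was called lower in JP2CR TAC. For the difference of TAC effects 0 genes of the 10 were called higher at an adjusted p under 0.01, without library 3 of both TAC groups, or with marker covariates, and 0 to 1 when single libraries were left out; for JP2CR TAC over WT TAC the count was 0 at an adjusted p under 0.01 and without both libraries 3, and 0 to 1 when single libraries were left out. DESeq2 gave an adjusted p of 1.73e-05 for the Efemp1 difference.

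With the replicate number as a block, 0 of the 10 genes were called for the difference of TAC effects (Efemp1 1.33, adjusted p = 0.053). Same-numbered libraries deviated from their group means with r between -0.19 and 0.11, and 1 of 24 pairs passed 0.1. Pairs with different numbers reached -0.22 and 0.22. Whether same-numbered libraries share a batch cannot be told from these values and was not tested.

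The exact tests of both ratios lost their adjusted calls without any one JP2CR TAC library, without the libraries with Xist and without both libraries 3 (adjusted p of 0.0571 to 0.150), and kept them without any one library of the other groups. Without the libraries with Xist the log2 Efemp1 to Efemp2 difference was -0.72 in JP2CR and -1.99 in WT, and that of Lox to Loxl1 1.21 in JP2CR and 1.52 in WT. Without both libraries 3 they were -0.47 in JP2CR and -1.98 in WT for Efemp1 to Efemp2, and 1.48 in JP2CR and 1.54 in WT for Lox to Loxl1. Leaving out single libraries gave -0.60 to -0.42 in JP2CR and -2.13 to -1.86 in WT for Efemp1 to Efemp2, 1.20 to 1.64 in JP2CR and 1.41 to 1.63 in WT for Lox to Loxl1, and -0.51 to -0.030 in WT for Eln to Fbn1.

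Over all genes tested, counts of calls moved more than those of the 10 genes. The difference of TAC effects had 12 higher and 4 lower, 91 and 41 by DESeq2, 213 and 159 without the libraries with Xist, and 0 and 0 without both libraries 3. JP2CR TAC over WT TAC had 49 higher and 39 lower, 129 higher by DESeq2, 228 and 150 without the libraries with Xist, and 2 and 2 without both libraries 3. JP2CR Sham over WT Sham had 0 higher and 13 lower, 13 and 39 by DESeq2, with 1078 genes at an unadjusted p under 0.05. WT TAC over WT Sham had 2848 higher and 2817 lower, and 1417 and 1423 with marker covariates. The cause of these shifts was not tested. A fit of only the groups compared was not run for the difference of TAC effects, which needs all 4.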
